A study of Homo sapiens with 8 samples.

Results

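Binding of ATF4 was examined at 4 autophagy genes, MAP1LC3B, SQSTM1, GABARAPL1 and WIPI1, in peak lists from chromatin immunoprecipitation followed by sequencing. A peak was assigned to a gene when any base of it lay within 5 kb of the gene's transcription start in the hg19 build: chromosome 16, position 87425801 for MAP1LC3B, chromosome 5, position 179247842 for SQSTM1, chromosome 12, position 10365404 for GABARAPL1, and chromosome 17, position 66453654 for WIPI1. WIPI1 is read on the minus strand and the other 3 genes on the plus strand. In all, 40 of the 312662 peaks in the 8 lists met this rule, and they fell into 7 of the 132657 regions formed by merging overlapping peaks of all lists.

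The 8 libraries came from Nalm6 and SUPB15, each a single established line of acute lymphoblastic leukaemia. Cells of either line had no treatment or received L-asparaginase, an enzyme drug that breaks down asparagine, at 1 IU/ml for 2 h, and each of the 4 groups held 2 libraries. All libraries were made with the same rabbit monoclonal antibody against ATF4. Nalm6 libraries are described as independent experiments, whereas nothing says that the SUPB15 libraries came from separate cultures, so the spread between these may be technical.

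Autophagy encloses cell contents in a membrane sac, the autophagosome, which fuses with lysosomes so that proteins are broken down and amino acids released. MAP1LC3B (LC3B) and GABARAPL1 are small ubiquitin-like proteins of the ATG8 family that are attached to lipid on that membrane. SQSTM1 (p62) is a receptor that ties ubiquitin-marked cargo to them, and WIPI1 reads a phosphoinositide on the growing membrane. ATF4 is a stress-induced transcription factor that binds DNA paired with other bZIP proteins, and autophagy genes are among its known targets under amino acid shortage.

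Because peaks lay over or next to the hg19 transcription start of each gene, RefSeq promoter letters of 3 of the genes are shown. They are the 250 bases before a RefSeq start on GRCh38.p14, a build other than that of the lists, read 5′ to 3′ along the gene's strand. Capitals mark the cyclic AMP response element TGACGTCA or its core TGACG, on either strand. MAP1LC3B is chr16:87392086-87392335 on the plus strand, GABARAPL1 is chr12:10212627-10212876 on the plus strand, and SQSTM1, the most downstream of its 3 RefSeq starts, is chr5:179820655-179820904 on the plus strand. Which of these 3 starts corresponds to the hg19 start with the peaks was not determined.
MAP1LC3B: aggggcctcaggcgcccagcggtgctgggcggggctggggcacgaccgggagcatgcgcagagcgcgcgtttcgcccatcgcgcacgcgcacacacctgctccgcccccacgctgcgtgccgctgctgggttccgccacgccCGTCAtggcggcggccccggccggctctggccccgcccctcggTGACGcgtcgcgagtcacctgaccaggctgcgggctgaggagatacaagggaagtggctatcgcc
GABARAPL1: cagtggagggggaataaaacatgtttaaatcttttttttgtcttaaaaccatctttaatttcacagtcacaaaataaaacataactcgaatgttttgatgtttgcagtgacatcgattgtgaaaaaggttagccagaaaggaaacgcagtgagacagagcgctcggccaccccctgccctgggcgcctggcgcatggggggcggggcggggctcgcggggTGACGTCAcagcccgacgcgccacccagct
SQSTM1: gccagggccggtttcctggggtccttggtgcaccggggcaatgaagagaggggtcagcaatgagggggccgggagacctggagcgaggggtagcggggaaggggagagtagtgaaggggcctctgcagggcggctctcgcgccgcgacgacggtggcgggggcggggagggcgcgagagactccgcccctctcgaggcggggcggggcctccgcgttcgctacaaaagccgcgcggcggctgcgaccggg
All 4 genes matched the RefSeq table, with 6 starts in total. GABARAPL1 held the full element TGACGTCA from 30 bases before the start, a match found in 1.65% of 35116 promoters of the same length. MAP1LC3B held TGACG on the plus strand from 65 bases and on the minus strand from 108 bases before the start, and 21.2% of promoters held that core, which the full element contains. No start of the 4 genes held the C/EBP-ATF composite element TGATGNAAN or its form TGATGCAA, nor the E-box CACGTG, in the 250 bases or in the 50 bases that follow the start. These motifs occurred in 3.13%, 0.772% and 6.34% of all promoters over the 250 bases, and in 3.61%, 0.866% and 7.26% over the 300 bases. Matches of letters are a description and not a measured site. In the asparaginase libraries of both lines the strongest peaks, described next, lay kilobases upstream of these windows, and their sequence was not used here. In untreated Nalm6 the peak of highest fold enrichment, a value explained below, was at the SQSTM1 start. Its summits lay 99 to 183 bp after the hg19 start, and not in the bases before it.

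The 7 regions formed a simple layout. MAP1LC3B and WIPI1 each had an upstream site and peaks over the start, and SQSTM1 and GABARAPL1 had peaks over the start only. The MAP1LC3B upstream site spanned chromosome 16 from 87421646 to 87422686, and the summit of its strongest peak lay 3473 to 3538 bp before the start in all 8 lists. The WIPI1 upstream site spanned chromosome 17 from 66457011 to 66458139, with summits 3918 to 3976 bp before the start in all 8 lists. Summits thus stayed within 65 bp of each other at MAP1LC3B and within 58 bp at WIPI1. At the starts they were spread over 381 bp for MAP1LC3B, 84 bp for SQSTM1 and 516 bp for GABARAPL1.

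**Figure D1:**
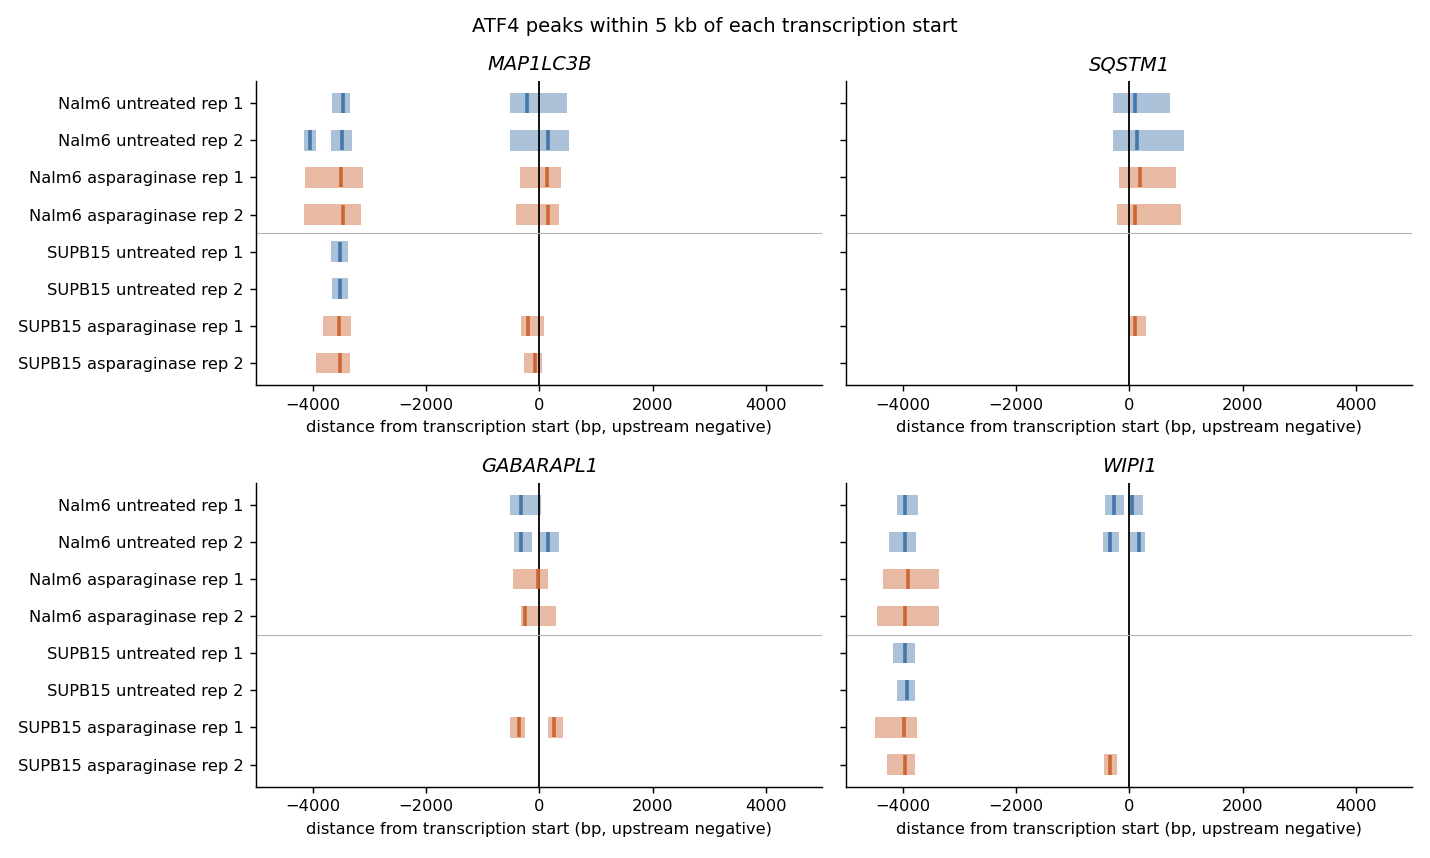
Peaks within 5 kb of the 4 transcription starts, 1 row per library. The horizontal axis is the distance from the start in bp, with upstream to the left, bars give the extent of each peak and ticks its summit. Upstream sites of MAP1LC3B and WIPI1 hold a peak in all 8 rows, and in both lines the asparaginase peaks there are wider than the untreated ones.

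In the RefSeq gene table of GRCh38.p14, the nearest gene on the upstream side that does not overlap the gene itself is FBXO31 for MAP1LC3B and FAM20A for WIPI1. Gene models of ARSG, PRKAR1A and MIR635 overlap WIPI1 in that table, those of MGAT4B and MRNIP overlap SQSTM1, and that of GABARAPL1-AS1 overlaps GABARAPL1. Assignment of a peak to a gene rests on distance alone. The outermost peak inside the 5 kb limit had its nearest base 3.94 kb from the MAP1LC3B start, in untreated Nalm6 replicate 2, with a fold enrichment of 2.40. The first peak outside lay 7.09 kb from the WIPI1 start, on the side of the gene body, in Nalm6 asparaginase replicate 2, with a fold enrichment of 3.29. For MAP1LC3B the first outside was 7.65 kb away and had an enrichment of 6.10, for SQSTM1 13.5 kb and 9.52, and for GABARAPL1 16.1 kb and 4.74.

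Values are given on the following scales. The deposited fold enrichment compares the summit with the local background around it, and −log10 p and −log10 q are the peak caller's own. The level used below is the number of fragments piled up at the summit, solved from the fold and the p, divided by the genome background of the library, which stands for its depth. The genome background was 2.21 to 2.97 fragments in Nalm6 and 3.90 to 4.19 in SUPB15. The lists held 34825 to 48984 peaks in Nalm6. Those of SUPB15 held 9575 and 9586 before treatment, and 88302 and 41213 after it. Local backgrounds moved in steps of 0.02, as a background taken from the precipitated library itself would give, so copy number, open chromatin and binding cannot be told apart within a level. No listed peak means a level under the listing limit, not a level of 0.

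At the upstream site of MAP1LC3B, whose protein is a widely used marker of autophagosomes, the ATF4 level was higher with asparaginase in both lines. Relative to the median region, the main comparison called this rise in Nalm6 only, as described below. In Nalm6 the level was 21.2 and 33.0 in the untreated libraries and 116 and 132 with asparaginase. In SUPB15 it was 15.7 and 12.6 untreated and 42.0 and 35.4 with asparaginase. Each asparaginase library lay above both untreated libraries of its line, without overlap. The share of all regions that separate in this way was not counted. These levels are not corrected for the change of the median region, itself higher by 0.37 on the log2 scale in Nalm6 and 0.62 in SUPB15. The means were 27.1 ± 8.33 (SD, n = 2) and 124 ± 10.8 (SD, n = 2) in Nalm6, a ratio of 4.58, and 14.1 ± 2.20 (SD, n = 2) and 38.7 ± 4.67 (SD, n = 2) in SUPB15, a ratio of 2.74.

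The deposited values of this peak moved in the same direction. Fold enrichment was 3.60 and 4.88 in untreated Nalm6 and 9.87 and 9.62 with asparaginase, and −log10 p was 17.9 and 34.9 against 161 and 188. The corresponding −log10 q values were 14.8 and 31.3 against 157 and 184. By −log10 p the peak ranked 10671 of 34825 and 4092 of 36801 in the untreated lists and 631 of 43376 and 555 of 48984 in the asparaginase lists. It stood above 69.4% and 88.9% of the untreated lists and above 98.5% and 98.9% of the asparaginase lists.

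SUPB15 gave fold enrichments of 5.40 and 4.48 at this site without treatment and 8.45 and 8.78 with asparaginase. The −log10 p was 27.8 and 18.5 against 101.1 and 83.2, and the −log10 q was 23.7 and 14.4 against 96.9 and 78.8. Its rank by −log10 p was 1235 of 9575 and 1394 of 9586 without treatment and 1078 of 88302 and 842 of 41213 with asparaginase. The peak therefore stood higher than 87.1% and 85.5% of the untreated lists and higher than 98.8% and 98.0% of the asparaginase lists. Since the lists differ in length, these positions describe each list and not a change.

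WIPI1, whose protein marks the forming autophagosome, showed the same layout at its upstream site. In Nalm6 the level was 19.2 and 20.8 untreated and 76.1 and 85.8 with asparaginase. In SUPB15 the level was 14.7 and 13.6 untreated and 31.7 and 25.5 with asparaginase. Again no asparaginase library overlapped an untreated library of the same line. The share of all regions without such overlap was not counted, and these levels too are not corrected for the median change. Nalm6 means were 19.99 ± 1.14 (SD, n = 2) and 80.9 ± 6.87 (SD, n = 2), a ratio of 4.05, and SUPB15 means were 14.1 ± 0.783 (SD, n = 2) and 28.6 ± 4.44 (SD, n = 2), a ratio of 2.02.

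Fold enrichment at the WIPI1 upstream site was 6.81 and 6.75 in untreated Nalm6 and 11.4 and 10.9 with asparaginase, with −log10 p of 30.8 and 31.0 against 118 and 135 and −log10 q of 27.2 and 27.5 against 114 and 131. The peak ranked 4433 of 34825 and 5159 of 36801 untreated, and 1101 of 43376 and 1103 of 48984 with asparaginase. In SUPB15 the enrichment was 6.03 and 5.84 against 9.09 and 9.15, −log10 p 29.0 and 25.4 against 81.7 and 63.1, and −log10 q 24.9 and 21.2 against 77.7 and 59.0. These peaks ranked 1185 of 9575 and 971 of 9586 in the untreated SUPB15 lists and 1447 of 88302 and 1227 of 41213 in the asparaginase lists. In the 4 asparaginase lists of both lines the site stood above 97.0% to 98.4% of the other peaks, and in the 4 untreated lists above 86.0% to 89.9%.

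**Figure D2:**
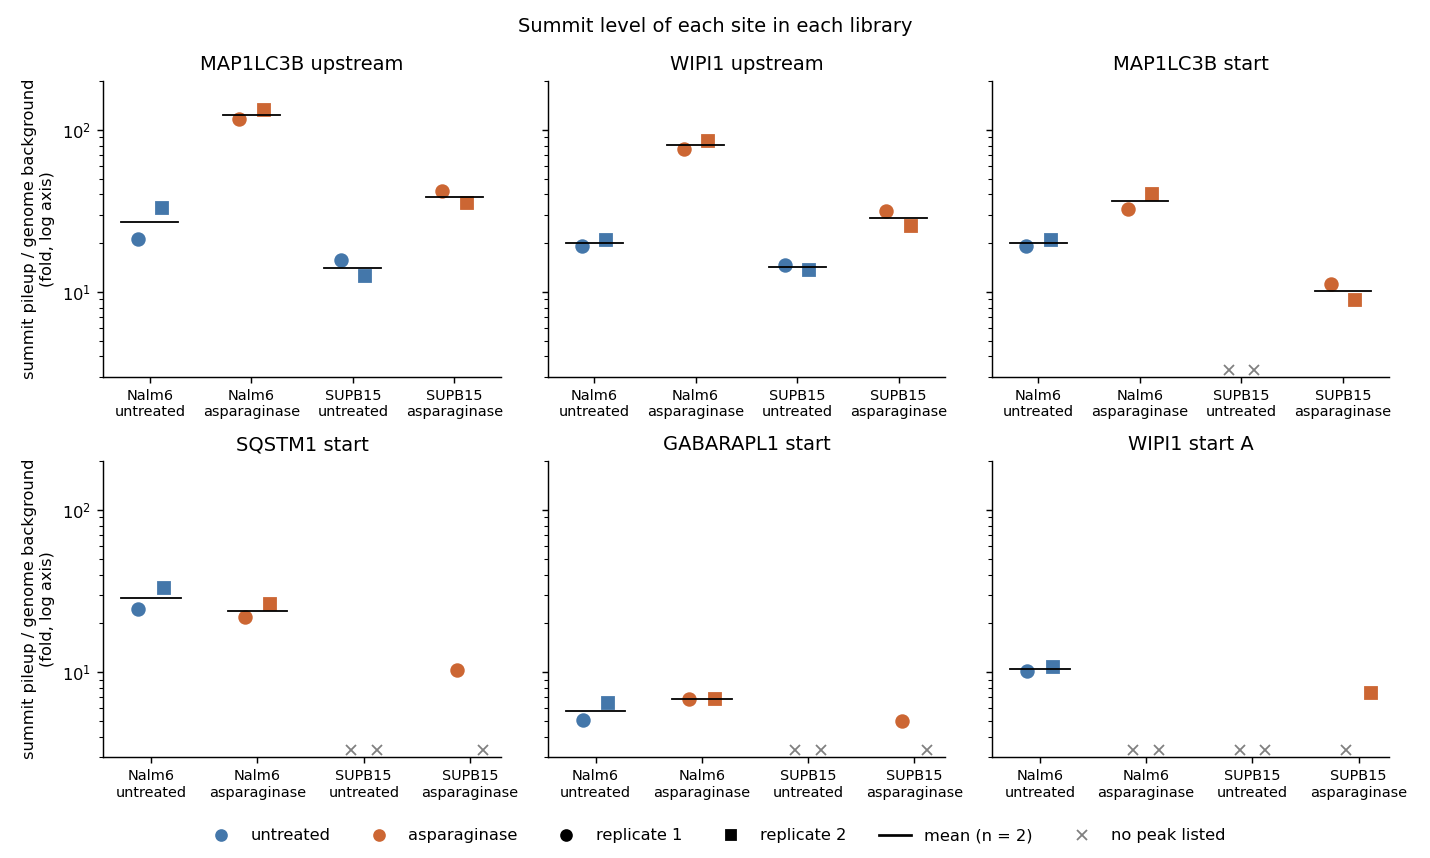
Summit level, the pileup divided by the genome background of the library, on a log axis, at 6 sites for the 4 groups. Points are libraries, lines are means of 2, and grey crosses at the foot mark libraries with no listed peak. At both upstream sites the asparaginase points lie above the untreated points in either line, from 76.1 to 132 in Nalm6 and from 25.5 to 42.0 in SUPB15.

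Regions listed in every library of a line were compared with limma, with p adjusted by Benjamini-Hochberg over all of them. The median region was itself higher with asparaginase, by 0.37 on the log2 scale in Nalm6 and by 0.62 in SUPB15, and the changes below are relative to that median. In Nalm6, 5 of the 7 autophagy gene regions entered, beside 44.1% of all regions. Of these 5, limma called 3 higher with asparaginase (22.7% of the 25213 regions tested were called higher) and 1 lower (8.65%). Without centring on the median, 9762 regions were called higher and 100 lower, in place of 5717 and 2182.

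The MAP1LC3B upstream site rose by 1.85 on the log2 scale (SE 0.17) in Nalm6, with an adjusted p of 3.15e-21, a change larger than that of 98.7% of the regions tested. WIPI1 upstream rose by 1.63 (SE 0.18, adjusted p = 1.76e-16), a change larger than that of 97.4% of regions. Both kept their direction and call under all alternatives run, including every left-out library. On the scale of the deposited fold enrichment the rises were smaller, 1.08 (adjusted p = 6.07e-04) for MAP1LC3B and 0.58 (adjusted p = 0.00611) for WIPI1.

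Merged over the SUPB15 lists alone, the peaks at these genes also formed 7 regions, but not the same set: the GABARAPL1 start split into 2, and WIPI1 start B, described below, was not listed. The upstream sites of MAP1LC3B and WIPI1 were the only ones of these 7 to be listed throughout the line, beside 4.63% of all SUPB15 regions. Relative to the median region, MAP1LC3B upstream was 0.82 higher on the log2 scale (SE 0.34, adjusted p = 0.0535) and WIPI1 upstream 0.38 higher (SE 0.35, adjusted p = 0.39). Neither passed the threshold, beside 20.5% of the 4765 regions called higher and 5.96% called lower. Without centring the changes were 1.44 (adjusted p = 8.55e-05) and 1.00 (adjusted p = 0.0116), and both passed. MAP1LC3B upstream also passed with 5 added to the pileup (limma adjusted p = 0.039), without a mean-variance trend (0.0174) and with the replicate number as a block (5.41e-05). Nothing in the labels says that this number marks a shared batch. Leaving out single libraries, which leaves a group with a single library, gave changes of 0.71 to 0.89 at MAP1LC3B and 0.33 to 0.36 at WIPI1. Over regions with −log10 q of at least 10 neither passed, MAP1LC3B upstream being 0.35 (0.425) and WIPI1 upstream −0.10 (0.852). The median change subtracted over those regions was 1.09, in place of 0.62 in the main fit. On the fold enrichment scale the changes were 0.38 (adjusted p = 0.169) and 0.19 (adjusted p = 0.458). Changes in SUPB15 fell into 2 groups of regions, on either side of the median used for centring. In bins 0.1 wide, 8.44% of regions lay around −0.35, 2.62% around 0.25 and 5.29% around 0.85. MAP1LC3B upstream sat among the upper of these, and WIPI1 upstream between them.

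**Figure D3:**
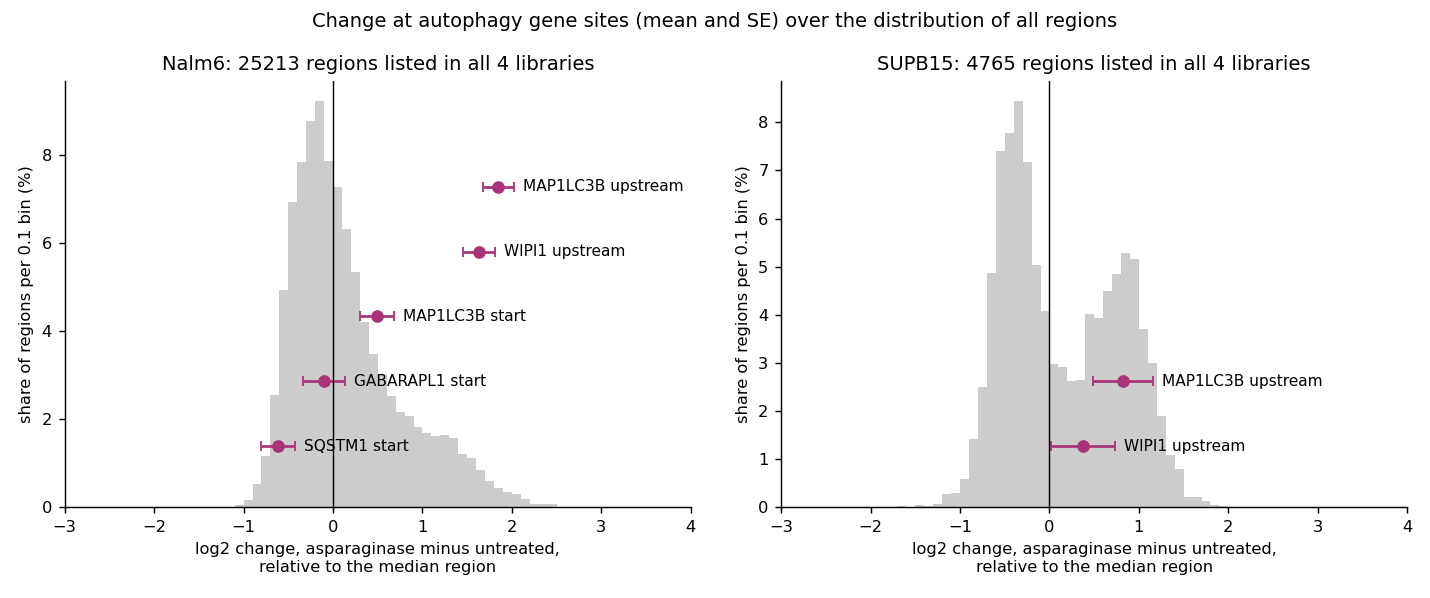
Log2 change with asparaginase relative to the median region, for Nalm6 on the left and SUPB15 on the right. Grey bars give the share of all regions per bin of 0.1, and points with bars are the autophagy gene sites with their SE, set at arbitrary heights. In Nalm6 both upstream sites lie beyond 97.4% of the regions and SQSTM1 lies above only 4.04% of them, and in SUPB15 the grey bars form 2 humps.

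Whether the upstream sites changed differently in the lines was tested over the 3812 regions listed in all 8 libraries, with each line centred on its own median. On that scale the change at MAP1LC3B upstream was 1.77 in Nalm6 and 0.88 in SUPB15. For WIPI1 upstream it was 1.56 and 0.43. SUPB15 minus Nalm6 was −0.90 (SE 0.37, adjusted p = 0.168) at MAP1LC3B and −1.13 (SE 0.39, adjusted p = 0.0662) at WIPI1 in the limma interaction test. Neither difference between the lines passed the threshold, which 4.93% of regions did in this direction and 0.498% in the other. With the replicate number as a block both passed (limma adjusted p = 0.0074 and 0.00131). Nothing in the labels says that this number marks a shared batch. Without a trend WIPI1 passed (0.0216) and MAP1LC3B did not (0.109). Neither passed without centring (0.318 at MAP1LC3B and 0.147 at WIPI1) or with 5 added to the pileup (0.174 and 0.0729). The same held at −log10 q of at least 10 (0.394 and 0.14). On the fold enrichment scale the differences were −0.67 (0.185) and −0.36 (0.457), and neither passed. Leaving out single libraries, which leaves a group with a single library, gave −1.12 to −0.63 and −1.17 to −1.07. A p above the threshold does not show that the lines respond alike.

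At the start of MAP1LC3B the direction depended on the scale. Levels were 19.2 and 20.8 in untreated Nalm6 and 32.6 and 40.3 with asparaginase, without overlap. The share of all regions that separate in this way was not counted. The deposited fold enrichments were lower with asparaginase, 4.37 and 3.88 untreated against 3.15 and 3.35. The local background under this peak was 12.3 and 14.2 fragments untreated and 22.1 and 27.3 with asparaginase, or 4.13 and 5.09 against 10.0 and 11.7 times the genome background. The level rose by 0.49 relative to the median region (SE 0.19, limma adjusted p = 0.0366), whereas fold enrichment fell by 0.48 (adjusted p = 0.046). Leaving out any 1 of the 4 libraries ended the first call, with adjusted p from 0.0541 to 0.363, and so did a fit without a mean-variance trend (adjusted p = 0.0748).

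The same local background rose at the upstream sites. At MAP1LC3B upstream it was 5.65 and 6.47 times the genome background untreated and 11.4 and 13.3 times with asparaginase in Nalm6. At WIPI1 upstream it was 2.53 and 2.77 times against 6.26 and 7.47 times. At the SQSTM1 start it was 2.32 and 2.39 times against 2.26 and 2.46 times, so no such rise was seen there. The part of the background in the lower fold at the MAP1LC3B start was not tested. Within a library, which needs no scaling, the upstream level of MAP1LC3B was 1.11 and 1.59 times that of its start in untreated Nalm6, and 3.57 and 3.27 times with asparaginase.

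**Figure D4:**
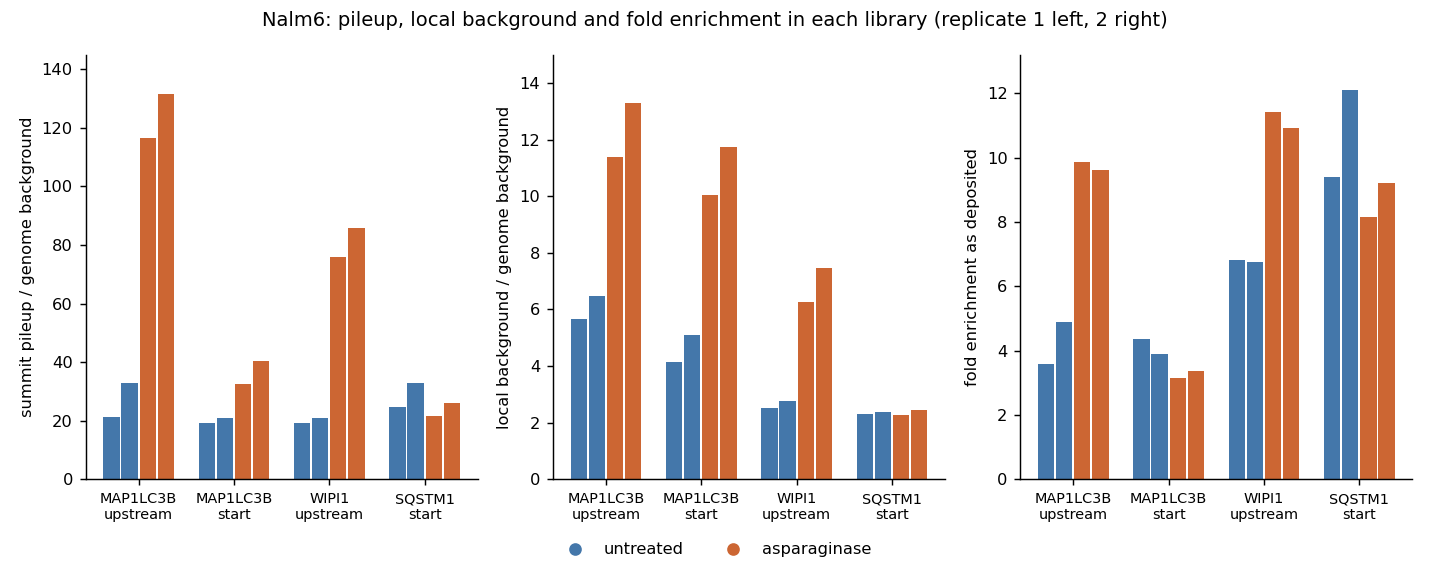
Summit pileup and local background, both divided by the genome background, and the deposited fold enrichment in the 4 Nalm6 libraries at 4 sites. Each bar is 1 library, with untreated in blue and asparaginase in orange. Bars of the MAP1LC3B start are higher with asparaginase in the first and second panel and lower in the third, 3.15 and 3.35 against 4.37 and 3.88.

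The remaining values of the MAP1LC3B start peak in Nalm6 were −log10 p of 20.4 and 18.2 untreated and 16.9 and 23.3 with asparaginase, and −log10 q of 17.2 and 15.2 against 14.0 and 20.2. It ranked 8902 of 34825 and 11531 of 36801 untreated, and 15443 of 43376 and 12275 of 48984 with asparaginase. In SUPB15 this was the only gained autophagy gene region, meaning a peak in the pair of treated lists and in none without the drug, 1 of 7 beside 16.7% of all SUPB15 regions, and none was listed without treatment only, beside 0.0272%. Its levels there were 11.2 and 8.91, with fold enrichments of 2.60 and 2.50, −log10 p of 8.87 and 6.61 and −log10 q of 6.09 and 3.77. At the local background seen 3.5 kb upstream, 11.04 and 10.16 fragments, the untreated SUPB15 lists held no peak below a level of 6.86 and 6.92. No peak of this start was left in the equally long lists or at −log10 q of at least 10, so that the gain then fell to 0.

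SQSTM1, the cargo receptor, carried the strongest start peak in untreated Nalm6 and was the 1 autophagy gene site called lower with asparaginase. Its level was 24.6 and 33.0 untreated and 21.7 and 26.2 with asparaginase, and these ranges overlapped. Means were 28.8 ± 5.95 (SD, n = 2) and 24.0 ± 3.13 (SD, n = 2), a ratio of 0.832. Relative to the median region this was a fall of 0.61 (SE 0.19, limma adjusted p = 0.00716), lower than all but 4.04% of regions. Without centring the change was −0.25 and did not pass (adjusted p = 0.334), and without untreated replicate 2 or asparaginase replicate 1 the adjusted p was 0.0827 and 0.154.

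Deposited values at SQSTM1 were fold enrichments of 9.39 and 12.1 untreated and 8.17 and 9.20 with asparaginase, −log10 p of 48.5 and 70.2 against 30.7 and 40.9, and −log10 q of 44.5 and 66.0 against 27.4 and 37.5. Its rank was 1708 of 34825 and 949 of 36801 untreated and 6661 of 43376 and 5339 of 48984 with asparaginase. The peak covered chromosome 5 from 179247550 to 179248815 and its summits lay 99 to 183 bp after the start. In SUPB15 only asparaginase replicate 1, the longest list, held it, with a level of 10.3, fold enrichment 3.08, −log10 p 10.6 and −log10 q 7.69, at rank 18655 of 88302. Neither untreated SUPB15 list and not asparaginase replicate 2 held a peak within 5 kb of this start.

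GABARAPL1, the ATG8 relative whose promoter letters include the full TGACGTCA, had the lowest levels of the 4 genes. In Nalm6 its level was 5.05 and 6.45 untreated and 6.79 and 6.86 with asparaginase. The asparaginase values lay just above the higher untreated one, by less than the spread between the untreated replicates. Means were 5.75 ± 0.993 (SD, n = 2) and 6.83 ± 0.0501 (SD, n = 2). The change was −0.10 relative to the median region (SE 0.23, limma adjusted p = 0.775) and turned to 0.26 without centring (adjusted p = 0.406), passing in neither form.

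The strongest GABARAPL1 peak of each Nalm6 list had a fold enrichment of 3.86 and 4.90 untreated and 4.73 and 4.86 with asparaginase. Its −log10 p was 6.65 and 9.54 against 8.26 and 8.81, and its −log10 q 4.18 and 6.93 against 5.78 and 6.36. Untreated replicate 2 held a second peak at the same start, with a fold of 4.57, −log10 p 8.58, −log10 q 6.03 and rank 24562 of 36801. The strongest peaks ranked 28820 of 34825 and 22262 of 36801 untreated and 31570 of 43376 and 33481 of 48984 with asparaginase, in the lower part of each list by −log10 p. At a local background like that under these peaks, the Nalm6 lists began at levels of 3.59 to 4.29. In SUPB15 only asparaginase replicate 1 listed this start, with 2 peaks whose fold enrichments were 2.98 and 2.47, −log10 p 5.98 and 4.0, −log10 q 3.53 and 1.95, and ranks 62113 and 87545 of 88302.

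At the start of WIPI1 peaks were listed without treatment and not with asparaginase in Nalm6. One region, called WIPI1 start A in the plots, covered chromosome 17 from 66453748 to 66454113, with levels of 10.1 and 10.8 in the untreated libraries. Another, start B, lay from 66453382 to 66453680, with levels of 8.41 and 9.32. Both were listed in each untreated library and in no asparaginase library, 2 of 7 autophagy gene regions beside 1.21% of all Nalm6 regions. They lie next to each other at the start of a single gene, so this count is not of separate genes. The share of all regions was 4.42% in equally long lists and 2.19% with summits within 200 bp taken as 1 region. No autophagy gene region was gained in Nalm6, beside 12.3% of all regions.

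These start peaks of WIPI1 were weak. Fold enrichments were 3.56 and 3.60 at start A and 3.10 and 3.17 at start B, −log10 p 9.66 and 9.77 and then 7.08 and 7.51, and −log10 q 7.0 and 7.14 and then 4.58 and 5.02. Start A ranked 20192 of 34825 and 21821 of 36801, and start B ranked 26948 of 34825 and 27648 of 36801. At the local background measured at the WIPI1 upstream site in the asparaginase libraries, 13.8 and 17.4 fragments, those lists held no peak below levels of 14.0 and 15.4, which is above the untreated levels of 8.41 to 10.8. In the untreated libraries the background at that site was 7.52 and 7.74 fragments, and the limit 6.73 and 6.81. Absence from the asparaginase lists is therefore not a measured fall, and the part of the background in it was not tested. With −log10 q of at least 10 neither region remained. In SUPB15 start A was listed in asparaginase replicate 2 alone, with a level of 7.38, fold enrichment 3.04, −log10 p 7.70, −log10 q 4.72 and rank 19965 of 41213.

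**Figure D5:**
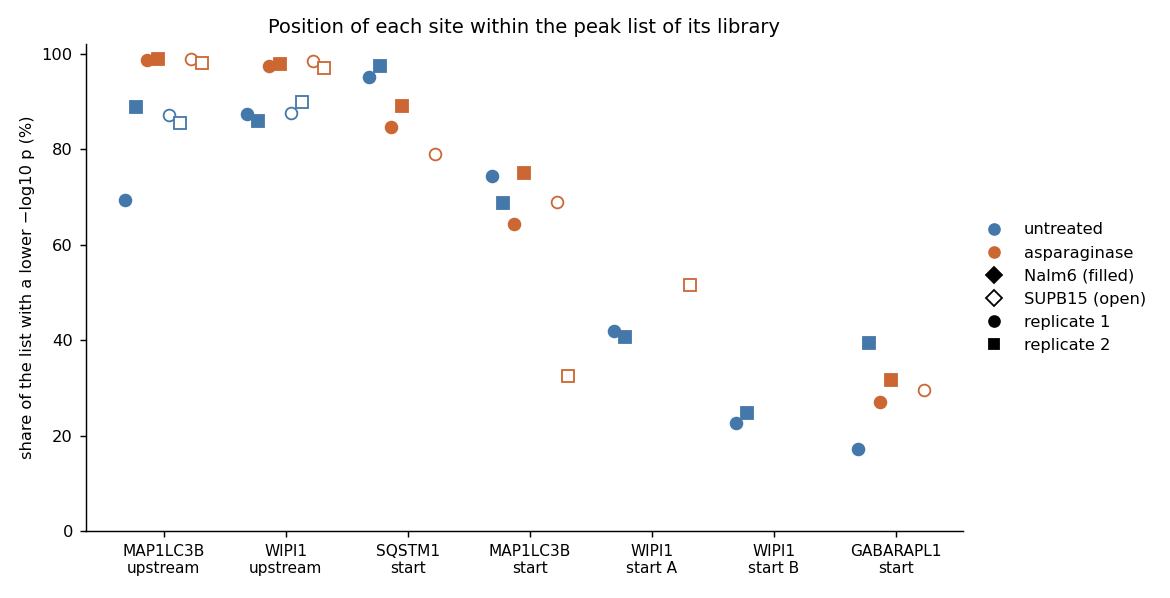
Share of a library's peak list with a lower −log10 p than the strongest peak of each site, in percent, with filled symbols for Nalm6, open symbols for SUPB15, circles for replicate 1 and squares for replicate 2. Both upstream sites lie above 97.0% in all 4 asparaginase lists, SQSTM1 is highest in the untreated Nalm6 lists, and GABARAPL1 lies at 39.5% or less in every list that holds it.

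Across the 4 genes, levels in Nalm6 with asparaginase followed the order MAP1LC3B upstream, WIPI1 upstream, MAP1LC3B start, SQSTM1 and GABARAPL1, and no neighbouring pair in this order overlapped between replicates. In untreated Nalm6 the MAP1LC3B upstream, SQSTM1, MAP1LC3B start and WIPI1 upstream sites had levels of 19.2 to 33.0, in an order that the replicates do not resolve. MAP1LC3B upstream and SQSTM1 overlapped, MAP1LC3B start and WIPI1 upstream coincided at 19.2 and 20.8, and the gap up to 21.2 was smaller than the spread between replicates. SUPB15 with asparaginase placed MAP1LC3B upstream first and WIPI1 upstream next by level, 35.4 to 42.0 and 25.5 to 31.7. By deposited fold enrichment the orders differed. In untreated Nalm6 SQSTM1 came first, at 9.39 and 12.1, and WIPI1 upstream next, at 6.81 and 6.75. MAP1LC3B upstream, MAP1LC3B start and GABARAPL1 overlapped below them, at 3.60 to 4.90. With asparaginase WIPI1 upstream came before MAP1LC3B upstream in both lines. The values were 11.4 and 10.9 against 9.87 and 9.62 in Nalm6, and 9.09 and 9.15 against 8.45 and 8.78 in SUPB15. MAP1LC3B start came last in Nalm6 with asparaginase, at 3.15 and 3.35, below GABARAPL1 at 4.73 and 4.86. In untreated SUPB15 the MAP1LC3B and WIPI1 upstream sites were the only ones listed. Their level ranges of 12.6 to 15.7 and 13.6 to 14.7 overlapped, whereas their fold enrichments, 5.40 and 4.48 against 6.03 and 5.84, did not.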

How the data were processed

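ATF4 chromatin immunoprecipitation libraries of Nalm6 and SUPB15, 2 per group, were grouped by line and treatment from their titles. The authors aligned reads with BWA to hg19 and called peaks with MACS2, and DiffBind is also named, per the submitters' processing notes. Versions and settings, not given in the sources used here, could affect which peaks are listed. Each deposited list belongs to 1 library. It holds a fold enrichment, which is a ratio computed by the authors' peak caller, and the deposited −log10 p and −log10 q values. Only peaks past the caller's threshold are listed, the lowest −log10 q being 1.31 to 1.63.

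From fold, (pileup + 1) / (background + 1), and the Poisson p, the whole-number pileup and local background were solved for 100% of peaks (tolerance 0.001 in −log10 p). The lowest background of a list was its genome background, and the level is pileup divided by it. Read totals are unknown. Overlapping peaks of a line were merged into regions. Log2 of pileup plus 1 over genome background, centred on the median change, was compared with limma 3.58.1 (trend, Benjamini-Hochberg at 0.05) at regions listed in all libraries compared. Solving and fits were checked on simulated data. Listing limits are the lowest level among peaks whose local background was within 5% of the one named.

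The genes named were the 4 members with every peak within 5 kb. Members, tests and motifs were chosen with earlier results of these data known. A further list of autophagy genes, and genes of similar pattern, were not analysed, since no hg19 annotation was used here. Promoters come from RefSeq on GRCh38.p14. Replicate numbers were checked for pairing: deviations of same-numbered libraries correlated at 0.0333 in Nalm6 and 0.086 in SUPB15, across regions, and nothing in the labels says that a number marks a shared batch.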

Additional observations from a re-analysis of the deposited data

How the results depend on the processing

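Peak lists hold only called peaks, so no level below the listing limit was measured, and with 2 libraries per group the limma spread is borrowed largely from other regions; with a library left out, the lone one is assumed to vary like the other group. The fold enrichment scale was chosen after the data had been seen, as was the count of regions listed only without asparaginase. The MAP1LC3B and WIPI1 upstream changes in Nalm6 kept their direction and call under the 10 alternatives run, at 1.08 to 2.21 and 0.58 to 2.00, the lowest values being on the fold enrichment scale (1.60 to 2.07 and 1.59 to 1.67 without single libraries). The cause of the shifts below was not tested. Each centred fit used the median change of the regions and libraries that entered it.

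With −log10 q of at least 10, 0 of 2 autophagy gene regions were gained in SUPB15 (32.4% of all regions) and 0 of 4 were listed only untreated in Nalm6 (1.48%). At that limit 4727, 569 and 51 regions were called in Nalm6, SUPB15 and for the difference between lines. The SUPB15 calls were 55 higher and 514 lower, in place of 976 and 284. MAP1LC3B and WIPI1 upstream in SUPB15 changed by 0.35 and −0.10. In equally long lists 0 of 2 autophagy gene regions were gained in SUPB15 (13.7% of all). Without centring, 2338 regions were called in SUPB15 (2334 higher and 4 lower, in place of 976 and 284) and 164 for the difference (29 and 135, in place of 19 and 188), GABARAPL1 changed by 0.26, SQSTM1 by −0.25, and MAP1LC3B and WIPI1 upstream in SUPB15 by 1.44 and 1.00. On the fold enrichment scale 4848 regions were called in Nalm6 and 115 for the difference, GABARAPL1 changed by 0.0020, MAP1LC3B start by −0.48, MAP1LC3B and WIPI1 upstream in SUPB15 by 0.38 and 0.19, and the differences were −0.67 and −0.36. With 5 added to the pileup MAP1LC3B upstream in SUPB15 changed by 0.83 (adjusted p = 0.039). Without a trend the adjusted p was 0.0748 for MAP1LC3B start (0.49), 0.0174 for MAP1LC3B upstream in SUPB15 (0.82) and 0.0216 for the WIPI1 upstream difference (−1.13).

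With the replicate number as a block, 2341 regions were called in SUPB15 and 411 for the difference. MAP1LC3B upstream in SUPB15 (0.82, adjusted p = 5.41e-05) and the differences at MAP1LC3B (−0.90, adjusted p = 0.0074) and WIPI1 (−1.13, adjusted p = 0.00131) passed under the block, and it changed no other call at these genes. Leaving out single libraries gave 1 to 4 gained autophagy gene regions in SUPB15 (2 of 4 without asparaginase replicate 1, beside 69.4% of all regions, and 4 of 6 without replicate 2, beside 85.1%), 4782 to 6898, 0 to 1658 and 79 to 368 called regions in Nalm6, SUPB15 and for the difference, the count of 0 being without SUPB15 untreated replicate 2 (412 at an unadjusted p under 0.05 by limma). Changes were then 0.38 to 0.58 at MAP1LC3B start, −0.75 to −0.49 at SQSTM1, −0.20 to −0.023 at GABARAPL1, and 0.71 to 0.89 and 0.33 to 0.36 at the upstream sites of MAP1LC3B and WIPI1 in SUPB15. The differences between lines were −1.12 to −0.63 at MAP1LC3B and −1.17 to −1.07 at WIPI1. Ranked by fold enrichment, the median peak at these genes stood above 53.8% of its list, against 76.9% by −log10 p.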
